A study of Oryctolagus cuniculus with 4 samples.

Results

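Rows of the deposited transcript table with the symbols ACTA1, MB, CKM, DES, TCAP, ANKRD1, ANKRD2 and XIRP1 were taken as common sarcomere and stretch-responsive muscle genes. All 8 symbols had an entry, as 9 transcripts, among 20294 genes in the table, and all 8 reached an average of 10 CPM (estimated counts scaled to the library total). The samples were intact semitendinosus tendons from 4 New Zealand White rabbits, all female and 193 days old, with 1 tendon and 1 library per animal. Semitendinosus is a hamstring muscle whose tendon serves as a graft in ligament reconstruction; muscle on the tendon surface was scraped off with a scalpel before freezing, and poly(A) RNA was sequenced. The tendons form 1 group with no treatment and no control, so there was no contrast to test, and the genes were selected on their measured levels in these tendons and on how those levels varied. The values below are therefore descriptions.

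A skeletal muscle fibre is filled with sarcomeres, in which thin filaments of actin are anchored at Z-discs and pulled by myosin filaments. Desmin intermediate filaments tie neighbouring Z-discs together, and telethonin, the product of TCAP, caps the ends of titin inside the Z-disc. Myoglobin stores oxygen and muscle creatine kinase regenerates ATP. The ankyrin repeat proteins encoded by ANKRD1 and ANKRD2 bind titin and other sarcomere proteins and also enter the nucleus, and their transcripts are known to rise when muscle is stretched or injured. XIRP1 encodes Xin, an actin-binding repeat protein of muscle-tendon junctions and of fibres under repair.

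Libraries held 19759696 to 30646052 estimated counts. Markers of the labelled tissue were present: the summed level of 6 tenocyte genes (of 7 symbols listed) was 45924, 35817, 17142 and 19282 TPM in tendons 1 to 4, and tenomodulin (TNMD) lay between 31.7 and 187 TPM. TPM are abundances corrected for transcript length and scaled to 1 total per library. Among heart muscle markers, MYBPC3 was at most 0.125 TPM and NPPA at most 9.83 TPM; the other 4 of 6 symbols had no entry. Smooth muscle markers, of which 4 of 7 had an entry, summed to between 117 and 184 TPM. In whole tissue, fewer muscle fibres and less muscle RNA per fibre cannot be told apart.

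Together the 8 genes accounted for 0.547%, 2.21%, 1.11% and 1.51% of TPM, going from tendon 1 to tendon 4, or 1.34% ± 0.698 on average (SD, n = 4). Tendon 2 held the most and tendon 1 the least. ACTA1 alone made up 55.4% ± 3.40 of this sum, MB 16.6% ± 2.81 and TCAP 13.8% ± 1.91, whereas the stretch-responsive trio of ANKRD1, ANKRD2 and XIRP1 accounted for 0.00892%, 0.0377%, 0.0287% and 0.0624% of TPM, in the same order of tendons. The sum of the trio was highest in tendon 4, where ANKRD1 made up most of it, whereas ANKRD2 was highest in tendon 2.

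ACTA1 encodes skeletal muscle alpha-actin, the thin filament protein (ENSOCUG00000007566.3, OryCun2.0 scaffold GL018838, 96909 to 98680). Its levels were 2925, 13182, 6218 and 7864 TPM in the tendons numbered 1 to 4, averaging 7547 ± 4281 (SD, n = 4). Tendon 2 stood above the other 3 and tendon 1 below them. After TMM scaling, which corrects scaled counts for library composition, ACTA1 was 5.12-fold higher in tendon 2 than in tendon 1.

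DES encodes desmin (ENSOCUG00000000968.3, chromosome 7, 160621568 to 160629173). Its levels were 296, 1160, 679 and 1301 TPM, with a mean of 859 ± 460 (SD, n = 4). Tendons 2 and 4 were close to each other and above the other pair, and which of them was higher depended on the scale: TMM-normalised values were 1677 CPM in tendon 2 and 1665 CPM in tendon 4. TCAP (ENSOCUG00000025160.1, chromosome 19, 40915726 to 40916106) had 823, 2904, 1254 and 2340 TPM, a mean of 1830 ± 959 (SD, n = 4). Tendons 2 and 4 were again the higher pair, with tendon 2 above tendon 4 on either scale. The lowest and highest TCAP values differed 4.01-fold after TMM scaling and 3.53-fold in TPM.

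The energy genes followed the order of ACTA1. MB, for myoglobin (ENSOCUG00000026126.1, chromosome 4, 85924479 to 85930824), had 1043, 2975, 2094 and 2272 TPM, a mean of 2096 ± 799 (SD, n = 4). With all 4 tendons it varied least of the 8, with 3.24-fold between the lowest and the highest tendon after TMM scaling; without tendon 1 its range was 1.56-fold and that of XIRP1 1.42-fold, and without tendon 4 that of ANKRD1 was 1.53-fold. CKM, for muscle creatine kinase (ENSOCUG00000027154.1, scaffold GL019006, 25519 to 33118), had 290, 1454, 532 and 708 TPM, a mean of 746 ± 502 (SD, n = 4), and a 5.70-fold range. It was the member in which tendon 2 stood farthest above tendon 4, at 2.32-fold. CKM had 2 transcript models of 1197 and 1203 bases, and the shorter was assigned between 58.3% and 61.3% of the gene's counts in the 4 tendons. The counts of both models were fractional estimates (2077.25 and 1400.75 in tendon 1), so a steady split need not measure a balance between models.

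ANKRD1, the cardiac ankyrin repeat gene (ENSOCUG00000006901.3, chromosome 18, 38907914 to 38917583), was measured at 41.1, 55.3, 54.3 and 405 TPM. Tendon 4 stood alone, and the other 3 lay within 1.53-fold of each other after TMM scaling. Tendon 4 was 9.91-fold above tendon 1, 6.48-fold above tendon 2 and 7.24-fold above tendon 3 on that scale; 30 of the 8780 genes tested (0.342%) were at least 4-fold higher in tendon 4 than in every other tendon. The mean of 139 ± 177 TPM (SD, n = 4) therefore describes none of the tendons, and it was 50.2 TPM without tendon 4.

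ANKRD2, the related skeletal muscle gene (ENSOCUG00000007793.2, chromosome 18, 45754795 to 45762829), lies 6.84 megabases from ANKRD1 on the same chromosome. Its levels were 42.0, 285, 199 and 169 TPM, a mean of 174 ± 101 (SD, n = 4). Here tendon 1 stood alone at the low end, and tendon 4 was below tendons 2 and 3. The range was 7.72-fold after TMM scaling and 1.90-fold without tendon 1.

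XIRP1 (ENSOCUG00000011396.2, chromosome 9, 4462283 to 4467742) had 6.08, 35.9, 34.0 and 49.6 TPM, a mean of 31.4 ± 18.2 (SD, n = 4). Tendon 1 was again far below, and the other 3 lay within 1.42-fold of each other after TMM scaling. The lowest value rested on 332 estimated counts, with an exact Poisson 95% interval of 297 to 370 that covers counting error only; in the other tendons XIRP1 had 2839 to 4548. Of the 8780 genes averaging 10 CPM or more (the tested genes), 5 (0.0569%) were at least 4-fold lower in tendon 1 than in every other tendon, and ANKRD2 and XIRP1 were among them.

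**Figure D1:**
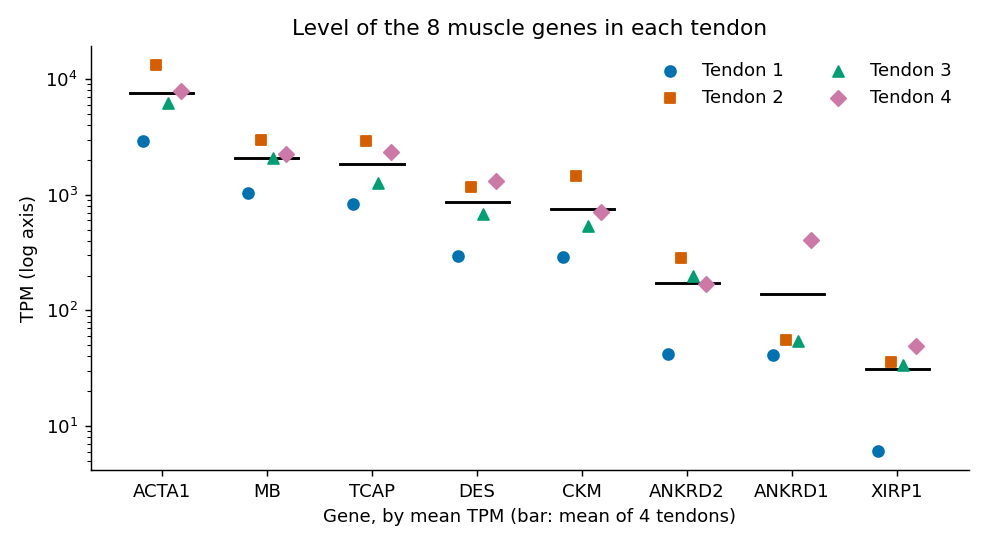
Levels of the 8 genes in TPM (log axis); each symbol is 1 tendon and each bar the average of the 4. Tendon 1 was lowest for all 8, and ANKRD1 reached 405 TPM in tendon 4 but no more than 55.3 TPM elsewhere.

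The order of mean TPM was ACTA1, MB, TCAP, DES, CKM, ANKRD2, ANKRD1 and XIRP1. Some neighbours did not differ beyond the spread between tendons: MB was above TCAP in 3 of 4 tendons, DES above CKM in 3 of 4, and ANKRD2 above ANKRD1 in 3 of 4. ACTA1 exceeded MB in 4 of 4 tendons, TCAP exceeded DES in 4 of 4, and ANKRD1 exceeded XIRP1 in 4 of 4, although the ranges of each of these pairs overlapped between animals. CKM and ANKRD2 did not overlap. Comparisons between genes rest on the annotated lengths. Without length correction, mean TMM-normalised CPM placed DES (1153) and CKM (503) above MB (443), and ANKRD1 (261) above ANKRD2 (105). The MB model held 382 bases over a genomic span of 6346. For TCAP and XIRP1 the annotated transcript, of 381 and 5460 bases, was as long as the genomic span of the gene, so these models hold no intron, and for ANKRD1 it held 3527 bases.

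The range between tendons was wide for these genes. For 7 of the 8, the highest TMM-normalised value was at least 4 times the lowest, where 188 of 8780 genes (2.14%) passed the same fold, and the median range was 5.41-fold for the 8 and 1.33-fold for all tested genes. Since the genes were picked with these levels known, the count describes them and is not support. MB was the exception. The count was 6 in TPM, by library totals or with 1 CPM added, where TCAP was under 4-fold. It was 1 without tendon 1, when ANKRD1 alone passed, 4 without tendon 2 and 6 without tendon 4.

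All 8 genes were lowest in tendon 1, the tendon with the lowest total count, as were 30.0% of tested genes. Tendon 2 was highest for 6 (31.5% of tested genes) and tendon 4 for ANKRD1 and XIRP1 (18.6% of tested genes). The order from lowest to highest was tendon 1, 3, 4, 2 for ACTA1, MB, CKM, DES and TCAP, a sequence held by 9.26% of tested genes. In TPM, DES had the order 1, 3, 2, 4. XIRP1 and ANKRD1 had the order 1, 3, 2, 4 (5.79% of tested genes) and ANKRD2 the order 1, 4, 3, 2 (6.06%).

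To compare the 8 genes within a tendon, each was also set against the geometric mean TPM of the other 7 in the same tendon. The SD of this log2 ratio over tendons was 0.10 for DES, 0.34 for TCAP, 0.37 for ACTA1, 0.41 for MB, 0.53 for CKM, 0.60 for ANKRD2, 0.63 for XIRP1 and 1.40 for ANKRD1. The small value of DES rests on this reference, which holds ANKRD1: the SD for DES was 0.47 against the slow fibre list. Relative to its own mean, ANKRD1 was 1.81 higher in tendon 4 and -1.44 in tendon 2 on the log2 scale. XIRP1 was -0.83 in tendon 1 and 0.59 in tendon 3, and ANKRD2 was -0.53 in tendon 1 and 0.62 in tendon 3. ANKRD2 and XIRP1 therefore lay low in tendon 1 even against the other muscle genes. The values of MB (0.43) and TCAP (0.35) there rest on a reference that holds ANKRD2 and XIRP1. Against the slow fibre list, tendon 1 was 0.09 for MB and 0.02 for TCAP relative to their means, but -0.76 for ANKRD2 and -1.02 for XIRP1. The shift of ANKRD1 bears on every other member's reference in tendon 4. Against ACTA1 alone, the SD of the log2 ratio was 0.16 for CKM and 0.39 for DES.

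**Figure D2:**
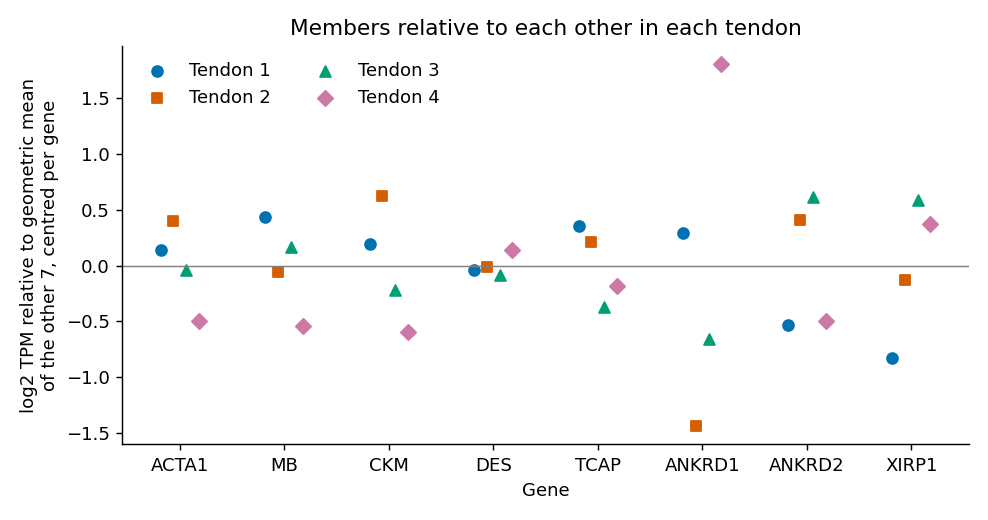
log2 TPM of each gene relative to the geometric mean of the other 7 genes, centred per gene, in tendons 1 to 4 (points); the line marks 0. ANKRD1 spans from -1.44 in tendon 2 to 1.81 in tendon 4, and DES stays between -0.09 and 0.14.

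ANKRD1 also stood apart when single pairs were compared. Across the 28 pairs, the smallest spread was that of ACTA1 to CKM, with ratios of 10.1, 9.06, 11.7 and 11.1 in tendons 1 to 4 (SD of log2 ratio 0.16). The thin filament gene and the creatine kinase gene thus kept close to 1 proportion while their levels ranged 5.12- and 5.70-fold. The 21 pairs without ANKRD1 had SDs from 0.16 to 0.90, with a median of 0.51. The 7 pairs with ANKRD1 had SDs from 1.16 to 1.67. The largest was between the relatives ANKRD1 and ANKRD2, whose ratio was 0.977, 0.194, 0.273 and 2.39. ANKRD1 was the lower of them in tendons 1 to 3 and the higher in tendon 4.

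**Figure D3:**
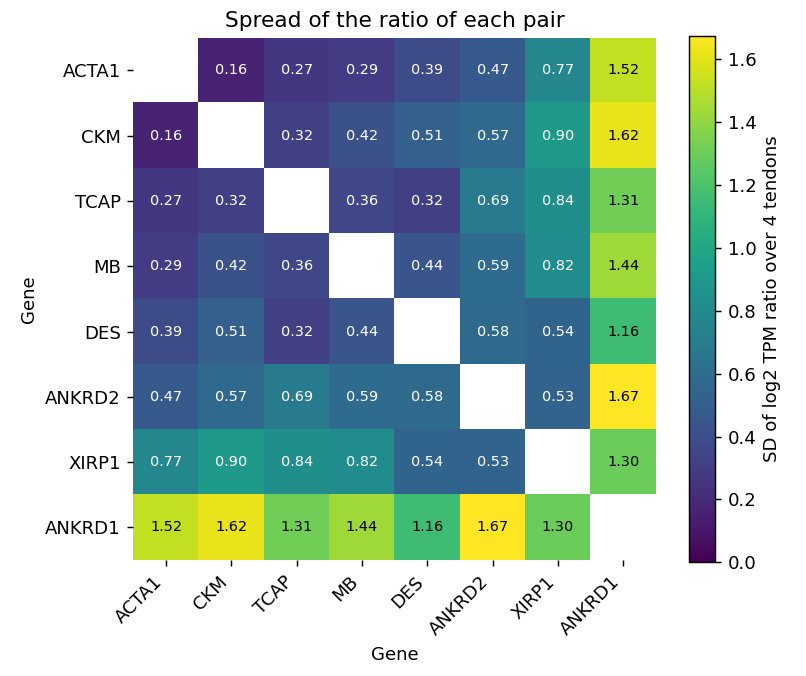
SD over 4 tendons of the log2 ratio of TPM for each of the 28 pairs of genes (colour and number). The row of ANKRD1 holds the 7 largest values, 1.16 to 1.67, and ACTA1 with CKM the smallest, 0.16.

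The members were compared with their closest relatives. ANKRD23, the remaining gene of the muscle ankyrin repeat family, had 257, 623, 309 and 541 TPM in tendons 1 to 4. It exceeded ANKRD1 and ANKRD2 in all 4 tendons, and ANKRD1 was 0.0888 of ANKRD23 in tendon 2 and 0.748 of it in tendon 4. XIRP2, the larger Xin gene, had 107, 165, 148 and 243 TPM, so XIRP1 was the minor form throughout. XIRP1 was 0.0571 of XIRP2 in tendon 1 and 0.204 to 0.230 of it in the other 3.

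ACTC1, the cardiac alpha-actin gene that skeletal muscle also makes during development, had 76.4, 326, 249 and 887 TPM. Like ANKRD1 it was highest in tendon 4, where it reached 0.113 of ACTA1 against 0.0247 to 0.0400 in tendons 1 to 3. Smooth muscle actin (ACTA2) ranged from 84.5 to 137 TPM. ACTG2, enteric smooth muscle actin, ranged from 14.3 to 18.9 TPM. Muscle actins are nearly identical in coding sequence, so counts shared between them are uncertain. ACTA1 had fractional estimates, as had ANKRD1 and ANKRD2, while 5 of the 8 genes had whole numbers in all tendons (within 1e-06). For CKM this held for the sum of its transcript models only. CKB, the brain-type creatine kinase, had 210, 152, 192 and 174 TPM and did not follow CKM. The mitochondrial kinase gene CKMT2 had 16.9, 50.5, 45.2 and 70.7 TPM. Cytoglobin (CYGB), a globin of fibroblasts, stood at 43.5, 58.6, 55.3 and 149 TPM.

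**Figure D4:**
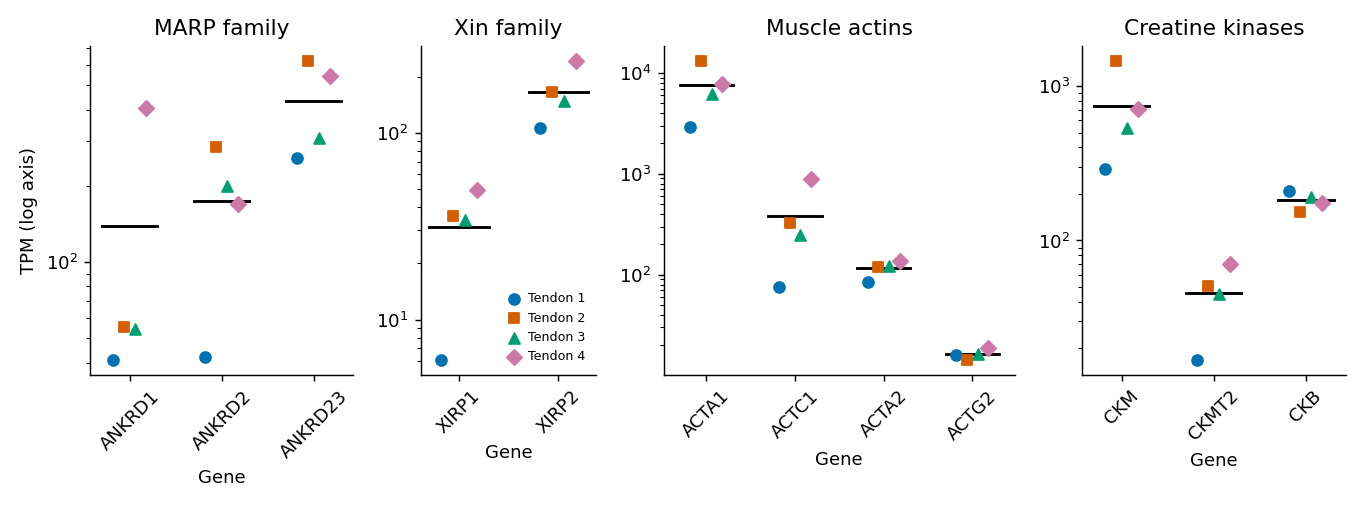
TPM on log axes of the 8-gene set's relatives in tendons 1 to 4 (points; bar: mean of 4), for the muscle ankyrin repeat (MARP), Xin, muscle actin and creatine kinase families; each panel has its own axis. ANKRD1 and ACTC1 are highest in tendon 4, at 405 and 887 TPM, while ACTA1 and CKM are highest in tendon 2.

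Other genes of the sarcomere and its surroundings were taken from lists. Of 17 Z-disc genes tested, 7 had a range of at least 4-fold and 16 were lowest in tendon 1. ACTN2, the muscle alpha-actinin, had 296, 1115, 685 and 856 TPM, and the small heat shock protein gene CRYAB, which protects desmin, had 1971, 5361, 4215 and 6037 TPM. Myotilin (MYOT) had a mean of 489 ± 232 TPM (SD, n = 4), and CSRP3, the muscle LIM protein of the Z-disc, a mean of 203 ± 106 TPM. Of 13 genes of giant proteins, the M-band and filament ends, 4 had such a range and 10 were lowest in tendon 1; MYBPC1, slow myosin-binding protein C, led them at 610 ± 259.5 TPM. Of 14 triad and calcium genes, 7 had such a range and 14 were lowest in tendon 1, among them ATP2A2, the slow calcium pump, at 471 ± 151 TPM and calsequestrin CASQ1 at 272 ± 150.4 TPM. A 4-fold range was found for 4 of 13 fuel genes and for 2 of 10 membrane and repair genes. CA3, the carbonic anhydrase of slow muscle, stood at 1115, 2747, 2113 and 2836 TPM. All 5 measured slow fibre genes had such a range, were lowest in tendon 1 and highest in tendon 2; TNNC1 had 1672, 6407, 3478 and 3572 TPM. The percent of all tested genes past each of these criteria is given above.

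Against the summed slow fibre list, ACTA1 kept ratios of 0.592, 0.716, 0.641 and 0.729 in tendons 1 to 4, and MB of 0.211, 0.162, 0.216 and 0.211. DES was highest against it in tendon 4, at 0.121 compared with 0.0599 to 0.0700 in the others. ANKRD1 had ratios of 0.00831, 0.00300, 0.00560 and 0.0375. XIRP1 had its lowest ratio in tendon 1, 0.00123, and its highest in tendon 4, 0.00460.

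Fast fibre genes were the list whose profiles lay on the side of ANKRD1. Likeness was measured as the root mean square difference over the 4 tendons between log2(TMM-normalised CPM + 1) profiles, each centred on its mean; the comparison of ANKRD1 with ACTA1 by this measure was chosen after the values were seen. Of 8780 tested genes, 1.53% had a profile nearer to ANKRD1 than to ACTA1. The side of ACTA1 was held by 98.5% of tested genes outside the 8. ACTA1 varied less than ANKRD1 (SD of log2 0.97 against 1.49), so genes that vary little lie nearer to it. COL1A1, highest in tendon 1, also lay nearer to ACTA1 (1.31) than to ANKRD1 (1.77). Being nearer to ACTA1 is therefore not by itself likeness to ACTA1. All 8 tested fast fibre genes were nearer to ANKRD1, and 0 of 5 slow fibre genes. MYH2, TNNT3 and MYH1 were at most 1.01 TPM in tendons 1 to 3 and reached an average of 10 CPM through tendon 4. Their side was thus fixed by the filter and is not a separate result. PVALB, of the same list, fell below the filter. Nearer does not mean close: the distance to ANKRD1 was 0.85 for ACTN3, the nearest of the fast fibre genes, and 2.06 for MYH2, the farthest. From tendon 1 to tendon 2, TNNC2 rose 14.6-fold and MYH2 1.91-fold, against 1.53-fold for ANKRD1. The summed fast fibre list was 36.2, 127, 58.1 and 3622 TPM in tendons 1 to 4. Developmental myosins were also nearer to ANKRD1: MYH8, the perinatal heavy chain, had 7.79, 5.14, 6.51 and 162 TPM, and MYH3, the embryonic chain, 41.5, 52.7, 32.4 and 109 TPM. From the remaining pathway lists, MYOZ1, CYGB, ITGA7, SLN and ACTC1 lay on the same side, each as 1 gene of its list. In those lists 16 Z-disc, 12 fuel, 9 membrane and repair, 13 triad and 2 actin genes were nearer to ACTA1. SLN (0.67 from ANKRD1, 0.69 from ACTA1) and ITGA7 (0.67 and 0.70) were nearly as far from both. Among the tested adipocyte markers LPL was nearer to ANKRD1 and ADIPOQ to ACTA1. The markers CIDEC (0.62 from ANKRD1, 1.38 from ACTA1) and LEP (0.64 and 1.26) were below the filter and also nearer to ANKRD1. The adhesion molecule NCAM1, listed with the developmental myosins, was highest in tendon 4 but nearer to ACTA1 (0.76) than to ANKRD1 (1.02). MYOZ1 is a fast fibre Z-disc gene, ITGA7 encodes the muscle laminin receptor chain, and SLN encodes sarcolipin, an inhibitor of the calcium pump. Tendon 4 also had the highest summed adipocyte markers (192, 311, 404 and 703 TPM over 4 of 5 symbols). COL22A1, the collagen of the muscle-tendon junction, was 45.9, 61.5, 52.3 and 114 TPM. Its order of tendons was that of ANKRD1, at a distance of 0.83 from ANKRD1 and 0.70 from ACTA1. The part of these cells or sites in the level of ANKRD1 was not tested.

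ANKRD1 is also known as a target of the coactivators YAP and TAZ outside muscle. Of 8 other genes of that kind, 0 were highest in tendon 4 and 0 had a 4-fold range. Over all tested genes these shares were 18.6% and 2.14%, so with 8 genes a count of 0 is not set apart from them. CTGF had 577, 383, 469 and 346 TPM, and CYR61 had 962, 1078, 1079 and 973 TPM. YAP1 itself ranged from 91.4 to 120 TPM. The samples are whole tissue, and the part of YAP or TAZ in the level of ANKRD1 was not tested. The muscle regulators MYF6 and SMYD1, a transcription factor and a sarcomere assembly methyltransferase, were the members of their list with a 4-fold range (2 of 12 tested); MYF6 had 13.8, 47.8, 39.4 and 73.8 TPM, in the order of XIRP1.

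**Figure D5:**
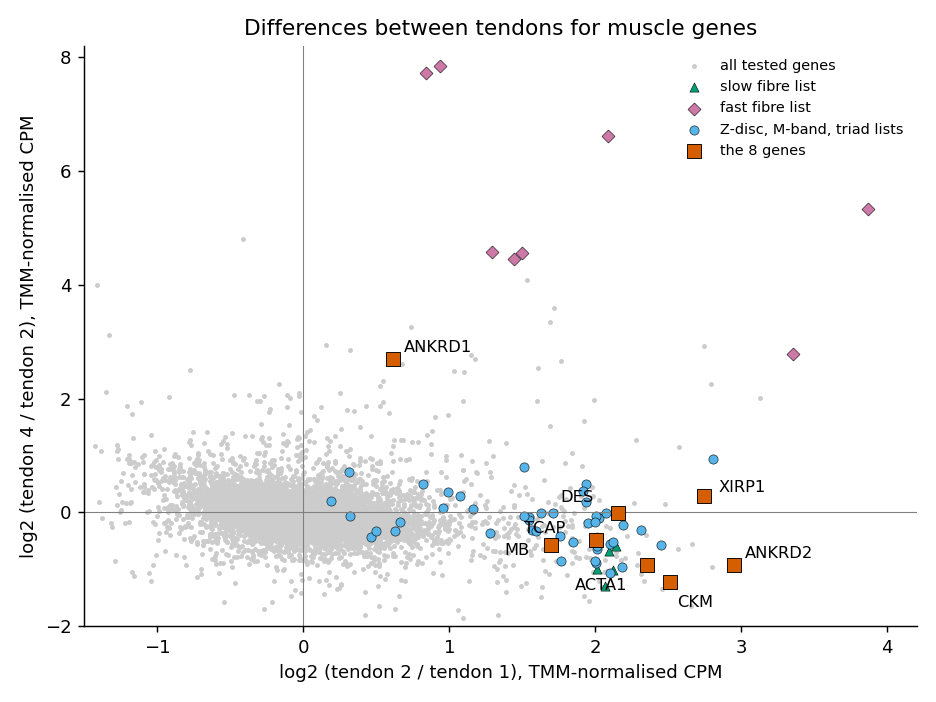
Each point is a tested gene: log2 ratio of tendon 2 to tendon 1 against log2 ratio of tendon 4 to tendon 2, both in TMM-normalised CPM; 3 genes with a zero and 27 outside the axes are not drawn. ANKRD1 lies at 0.61 and 2.70, while the other 7 genes lie between 1.70 and 2.95 on the horizontal axis and between -1.21 and 0.29 on the vertical axis.

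For each gene, the 3 named genes with the most similar profiles over the 4 tendons were found among 7292. ACTA1 lay closest to TPM2, the beta-tropomyosin of the thin filament (distance 0.07 on the log2 scale), TMEM38A, a cation channel of the sarcoplasmic reticulum (0.08), and FHL3, a LIM domain gene (0.09). TPM2 had 1654, 6565, 3281 and 4143 TPM. CKM lay closest to DHRS7C, a sarcoplasmic reticulum enzyme gene (0.12), then TMEM38A and TPM2 (both 0.17). The neighbours of MB were IMPA2 (0.04), HOMER2 (0.06) and PPP1R3A (0.07), the last of which targets a phosphatase to glycogen in muscle. Those of DES were the unconventional myosin gene MYO18B (0.04), LMOD3, a leiomodin of thin filament ends (0.07), and BIN1, which shapes T-tubule membranes (0.09). Those of TCAP were MYL3, the slow myosin light chain (0.08), KLHL31 (0.09) and SORL1 (0.13). With only 4 tendons, many profiles are alike: 1108 named genes (15.2%) lay within 0.5 of MB, 291 of TCAP, 196 of DES, 194 of ACTA1 and 144 of CKM.

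The stretch-responsive genes had fewer and more distant neighbours, but they were also the members that varied most. Their SD of log2 was 1.25 for ANKRD2, 1.37 for XIRP1 and 1.49 for ANKRD1. In the remaining members it lay between 0.71 (MB) and 1.04 (CKM). Most tested genes varied little (median range 1.33-fold), so members that vary more tend to have fewer genes within a fixed distance. Whether the stretch-responsive genes differ beyond this spread was not tested. XIRP1 had 21 named genes within 0.5, ANKRD2 had 53 and ANKRD1 had 11, or 0.151% of those compared. ANKRD2 lay closest to COLQ, the collagen tail that anchors acetylcholinesterase at the neuromuscular junction, and to the muscle LIM protein gene CSRP3 (both 0.28), then to GPAT3 (0.32). COLQ had 4.29, 21.3, 15.6 and 10.8 TPM. XIRP1 lay closest to TCEAL7 (0.33), to HSPB3, a small heat shock protein gene of muscle, and to MYF6 (both 0.37). TCEAL7 had 24.8, 130, 127 and 324 TPM. ANKRD1 lay closest to DGAT2, which makes triglycerides (0.25), to PEG3 (0.29) and to ITGB1BP2, which encodes melusin, an integrin-binding protein of striated muscle (0.33). ITGB1BP2 had 9.17, 24.5, 16.7 and 107 TPM, and DGAT2 20.03, 37.8, 43.8 and 237 TPM. Both were highest in tendon 4, as their choice by this profile implies.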

How the data were processed

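Estimated counts per transcript were deposited by the authors, without scaling, in a table with a column for each tendon. The submitters' processing notes name kallisto 0.42.4, the build OryCun2.0, FastQC and bcl2fastq, without roles; filters and strand use are not given in the sources used here. Transcript lengths (another unit, bases) were deposited in the same table.

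Counts were summed per gene. TPM used the annotated transcript lengths. For comparisons between tendons, counts rounded for edgeR 4.0.16 gave TMM factors from genes reaching 1 CPM in 2 or more tendons; DESeq2 1.42.0 size factors were an alternative. Ranges and profile distances were computed for 8780 genes averaging 10 CPM or more, with a pseudocount of 1 CPM for distances. Other steps ran in R 4.3.3 and in Python 3.11.15 with scipy 1.17.1, pandas 2.3.3 and numpy 2.4.6. In simulated data for these 8780 genes, with a coefficient of variation of 0.2, 100% of 200 genes changed 8-fold in 1 tendon passed the 4-fold range.

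The members and lists were chosen with earlier results of these data known. Named genes were the 8 members, up to 5 per list by mean TPM, all measured relatives and actins, the 3 nearest profiles of each member, and genes behind counts of 5 or fewer; levels are printed for those that lead. Libraries come from separate animals.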

Additional observations from a re-analysis of the deposited data

Results flagged for a closer look

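A gap between the highest or lowest tendon and the nearest other, relative to the whole range, was taken as large above Dixon's 95% critical value for 4 samples. Of 120 values, 14 passed, and a rate of 1 in 20 would give about 6. These counts cannot be weighed against each other, since the values are not independent and include genes picked for their profile. The members and lists were also chosen with these levels known, so the values that passed are descriptions. ANKRD1 was the only one of the 8 genes to pass in TPM, with a ratio of 0.961 and tendon 4 the highest; none of the 8 passed relative to the other 7.

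The remaining values that passed were named from lists or as neighbours of ANKRD1. Tendon 4 was the highest for the fast fibre share of TPM (0.975) and for MYH2 (0.998), TNNC2 (0.980), MYL1 (0.977), MYLPF (0.973) and ATP2A1 (0.884). The same tendon was highest for the developmental myosin MYH8 (0.983), the adhesion molecule NCAM1 (0.886), and the ANKRD1 neighbours PEG3 (0.948), DGAT2 (0.890) and ITGB1BP2 (0.844), which were picked for this profile. LDHB, a lactate dehydrogenase gene, was highest in tendon 2 (0.846), and NPPA in tendon 1 (0.830).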

How the results depend on the processing

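The mean share of the 8 genes in TPM, 1.34%, was 0.769% of counts without length correction and 1.51% without the 13 mitochondrially encoded genes, and between 1.05% and 1.61% with 1 tendon left out. The count of the 8 with a 4-fold range was 7 with DESeq2 size factors and lay between 1 and 7 with 1 tendon left out. The count over all genes was 188, and 77 without tendon 1, 123 without tendon 2, 173 without tendon 3 and 110 without tendon 4; it was 557 (4.39%) of 12690 genes averaging 1 CPM or more and 1349 (9.08%) of 14860 with a count above 0 in every tendon, as lower filters admit more genes. All 8 were lowest in tendon 1 under each of the 4 scalings. Of the 24 nearest-profile entries, 20 were kept with a pseudocount of 0.1 and 18 with the filter at 1 CPM. The relative spread of DES, 0.10, was 0.47 against the slow fibre list, and that of ANKRD1, 1.40, was 0.87 without tendon 4. With 1 library per animal, the animal, tissue left after scraping and library preparation cannot be told apart.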

Other observations

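Named genes within 0.5 of the ANKRD1 profile were collected after the values were seen. Besides the neighbours already given, they were GPD1, a glycerol phosphate dehydrogenase gene, with 5.33, 16.0, 13.2 and 115 TPM in tendons 1 to 4, the matrix genes SPP1 (osteopontin) with 57.8, 63.5, 120 and 522 TPM and POSTN (periostin) with 327, 282, 246 and 1312 TPM, the antigen presentation genes CD74 with 38.3, 69.1, 109 and 440 TPM and HLA-DRA with 21.5, 42.7, 62.5 and 311 TPM, and PADI2, CHI3L1 and ACSS2. All 11 were highest in tendon 4, which follows from their selection by this profile and is not a separate result.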
